A study of Mus musculus with 4 samples.

Results

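The genes described here copy DNA during S phase: 41 genes for origin licensing, helicase activation, DNA polymerases, the sliding clamp and its loader, single-strand binding, deoxynucleotide supply and S phase entry. Members are the genes whose platform symbol is on this list. Of the 41 genes, 40 had at least 1 probe set of their own on the array and 1, Gins2, had none. The 40 genes were read by 70 of the 22690 probe sets, out of 12394 genes in all.

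Replication starts when the origin recognition complex, with Cdc6 and Cdt1, loads the Mcm2-7 helicase onto DNA in G1. Cdc45 and the GINS complex then turn the loaded helicase into an active fork, primase lays down RNA primers, and the polymerases extend them behind the PCNA clamp. Many of these genes are transcribed at the G1 to S boundary under E2F factors, so in a tissue their mRNA is widely read as a measure of cycling cells. In the mammary gland of a nulliparous adult, most of the cycling cells of the ducts are luminal epithelial cells, while immune and stromal cells can add to the signal.

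RNA came from the mammary glands of FVB females that had not been pregnant (nulliparous), either wild type or carrying a PPARδ transgene (MMTV-PPARd). Each genotype was fed for 1 week with chow, plain or containing GW501516, a drug that activates PPARδ, a fatty acid sensing nuclear receptor. The wild-type mice were littermates matched in age, and the labels give no age as a number. The mouse mammary tumour virus promoter that drives the transgene is active mainly in mammary epithelium and is also known to be active in salivary gland and lymphoid cells. Each of the 4 groups (wild type on chow, MMTV-PPARd on chow, wild type on GW501516, MMTV-PPARd on GW501516) was 1 Affymetrix array of 1 RNA pool from 5 mice, so no difference below has a replicate check and none was tested. The dose is uncertain: the protocol and the source names have 0.005% GW501516, while a treatment tag has 0.001%.

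Values are probe set intensities on the deposited linear scale, and each gene is given by its probe set with the highest mean. Differences are log2 ratios between 2 arrays, with intensities under 20.5, the 25th percentile of all values, set to that floor. A difference was counted at 2-fold and at 1.5-fold, and each count stands beside the share of all 12394 genes that passed the same limit. The only error that 1 array per group allows is the scatter between probe sets of 1 gene on the same arrays. For the members with at least 2 probe sets whose mean reached the floor its SD was 0.39 (log2, n = 18 genes) for the genotype difference on chow, 0.41 on GW501516, 0.27 for the diet difference in wild type and 0.50 in the transgenic. This scatter holds no spread between mice, pools or arrays.

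The transgene itself matched the labels: Ppard had intensities of 2.1 and 1.5 in wild type on chow and on GW501516, and of 1943 and 4224 in the transgenic. The transgenic chow array stood apart from the other 3 arrays. Its BioB middle control, an RNA added at hybridisation, read 32.4 against 438.1 to 519.0, its Gapdh middle control 2986 against 7171 to 10826, and its highest intensity was 14309 against 19396 to 21520. The ratio of 3′ to 5′ Gapdh signal was 1.12 on that array and 0.774 to 0.900 on the others. That array enters the genotype difference on chow and the diet difference in the transgenic. The genotype difference on GW501516 and the diet difference in wild type do not.

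Replication genes were higher in the transgenic pools than in wild type on both diets, by modest amounts. On chow, 37 of the 40 measured members were above their wild-type value, against 41.9% of all genes, and 2 were below, Pold2 and Tk1, against 39.8%. At least 1.5-fold higher were 16 members (40% of them, against 10.5% of all genes), and at least 2-fold higher were 2, Prim1 and Ccne2 (5%, against 4.53%). No member was 1.5-fold lower, where 10.3% of all genes were, and none 2-fold lower (3.52%). The median log2 difference of the 40 members was 0.54, and that of all genes was 0. By the probe set used for each gene, the count at 2-fold was therefore near the background. It was at 1.5-fold and in the sign that the members' share lay above it. Other probe sets of Mcm2, Mcm6, Rfc1 and Rrm2 passed 2-fold on chow, at 1.05 to 1.24, and no member probe set was 2-fold lower.

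On GW501516, a comparison that shares no array with the one on chow, 35 of 40 members were above wild type (39.5% of all genes) and 4 were below (42.2%): Orc6, Rpa2, Ccne1 and Ccne2. At least 1.5-fold higher were 13 members (32.5%, against 6.59% of all genes), and none was 1.5-fold lower (5.9%). By the probe set used for each gene none reached 2-fold in either direction (2.37% higher and 1.2% lower among all genes). Other probe sets of Fen1 and Rrm2 were 2-fold higher, at 1.54 and 1.14, and no member probe set was 2-fold lower. The median of the 40 members was 0.34. Above wild type on both diets were 33 members (82.5%, against 22.9% of all genes), and 8 were at least 1.5-fold higher on both (20%, against 3.05%): Orc1, Cdt1, Mcm5, Gins1, Pola1, Prim1, Lig1 and Rrm2. None was 1.5-fold lower on both (1.37%). These 8 belong to origin licensing, helicase activation, the polymerases and primase, the lagging strand and deoxynucleotide supply. None is a clamp, clamp loader, single-strand binding or S phase entry gene, and the folds of Orc1 rest on low intensities.

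Many genes of the array lie at the floor on all arrays and can pass no limit. Over the 9882 genes whose mean intensity reached the floor, a subset chosen after seeing the data that holds 39 of the members, 13% were at least 1.5-fold higher in the transgenic on chow, 8.01% on GW501516 and 3.82% on both, and 28.4% were above wild type on both diets. The only measured member outside this subset was Tyms, thymidylate synthase, which makes dTMP. All 3 of its probe sets lay below the floor on every array, with the brightest reading 0.9 to 14.1, so it has no fold here.

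**Figure D1:**
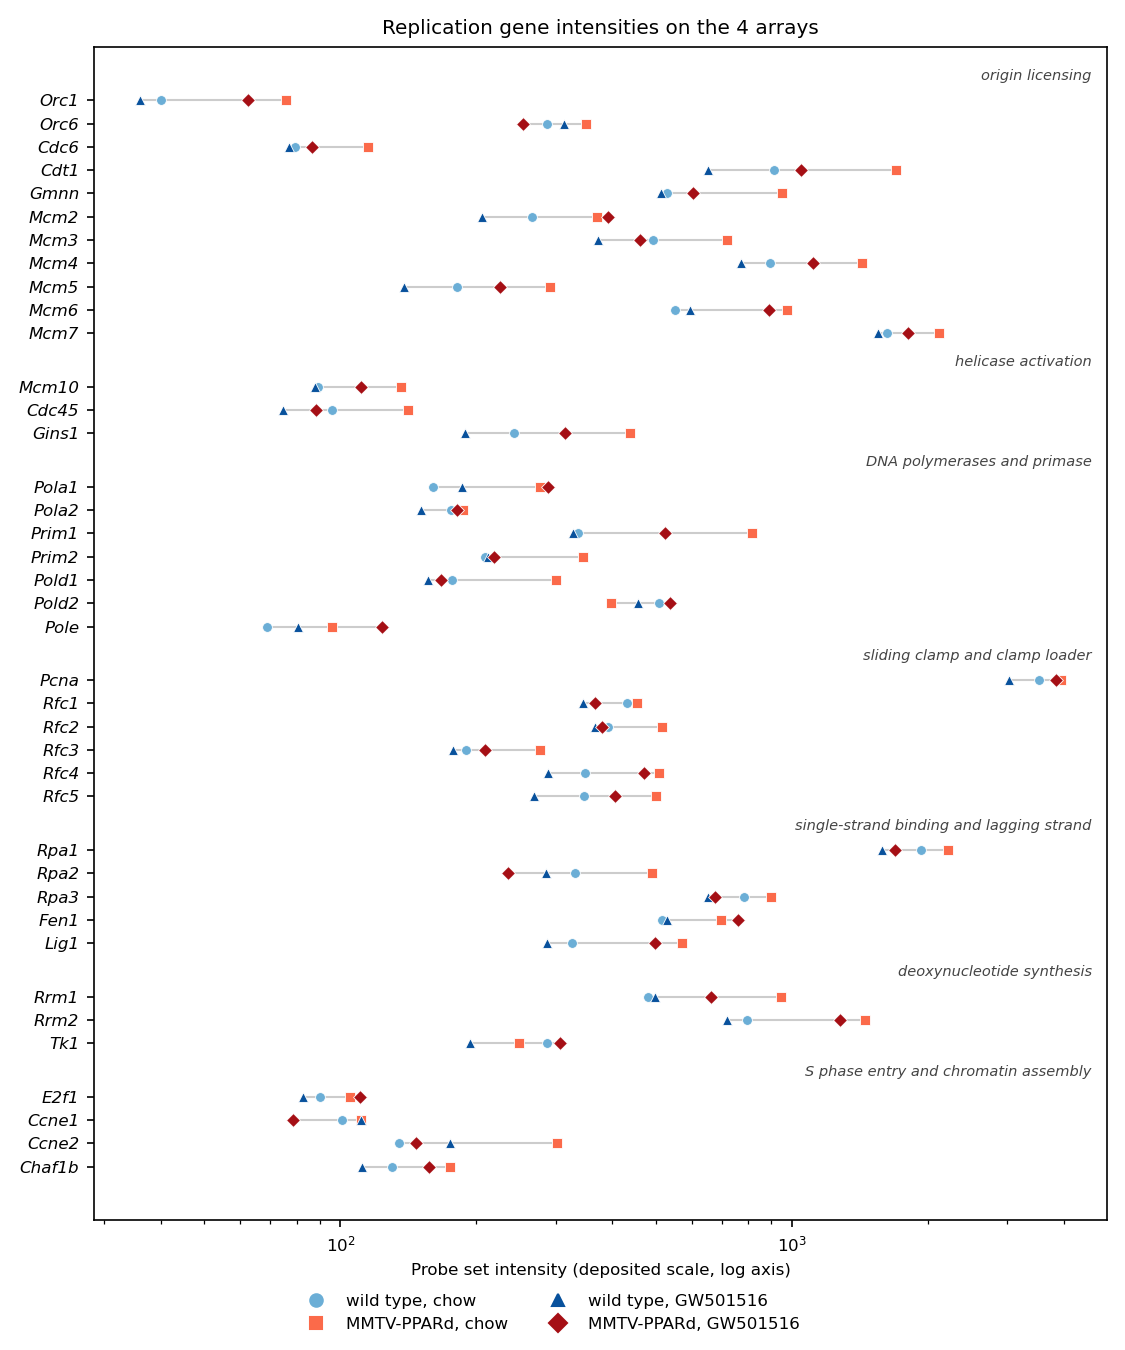
Intensities of 39 replication genes on the 4 arrays, grouped by role; each point is 1 array of 1 pool, the x axis is the deposited intensity on a log scale, and the grey line spans the 4 arrays. The transgenic chow array was the highest for 32 of the 40 measured members, and Tyms, below the floor on every array, is not drawn.

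Most members had the same array as the highest of the 4 and the same array as the lowest, while the full order varied between genes. The transgenic chow array was the highest for 32 of the 40 members (29.7% of all genes), and the wild-type GW501516 array was the lowest for 28 (22.8%) and the highest for none (23.7%). Both transgenic arrays lay above both wild-type arrays for 26 members (65%, against 18.5% of all genes). The exceptions were Orc6, Mcm3, Cdc45, Pold1, Pold2, Rfc1, Rfc2, all 3 Rpa genes, Tyms, Tk1, Ccne1 and Ccne2.

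Some promoters are shown because E2F-type letters were more frequent in the members than among all genes. RefSeq promoter windows on GRCm38.p6, from 250 bases before to 50 bases after the start site, were matched for 33 of the 41 members. Each was searched on both strands for TTTCCCGC, TTTCGCGC, TTTGCCGC and TTTGGCGC, which are E2F-type sites, and for CCAAT, the core of the site bound by NF-Y. An E2F-type match was present in 11 of 33 member windows (33.3%), in 2.6% of the windows of all 27025 genes and in 4.07% of those of the 9888 genes with a probe set. CCAAT, a short word, was present in 20 of 33 (60.6%), against 41.1% and 42.3%. In the stretches below, written 5′ to 3′ on the gene's strand, capitals mark the E2F-type matches in the first 4 and CCAAT in the last 2. Mcm6 is shown for having the most matches, Mcm5, Orc1 and Pola1 as genes with a match that were 1.5-fold higher on both diets, and Prim1 and Rrm2 as genes also 1.5-fold higher on both diets but without one.
Mcm6, chr1:128359726-128359835, minus strand: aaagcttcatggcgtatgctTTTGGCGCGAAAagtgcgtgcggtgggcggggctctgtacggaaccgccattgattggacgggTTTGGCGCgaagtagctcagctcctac
Mcm5, chr8:75109339-75109398, plus strand: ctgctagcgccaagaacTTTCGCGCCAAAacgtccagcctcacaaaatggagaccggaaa
Orc1, chr4:108579394-108579453, plus strand: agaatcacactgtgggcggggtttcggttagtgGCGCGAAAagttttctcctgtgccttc
Pola1, chrX:93632256-93632315, minus strand: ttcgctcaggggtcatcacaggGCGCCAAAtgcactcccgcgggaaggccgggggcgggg
Prim1, chr10:128015155-128015214, plus strand: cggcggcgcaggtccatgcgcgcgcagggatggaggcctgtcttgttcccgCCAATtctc
Rrm2, chr12:24708174-24708233, plus strand: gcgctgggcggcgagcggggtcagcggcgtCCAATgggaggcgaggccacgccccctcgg

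In Mcm6 and in Mcm5 2 of the matches overlap, on opposite strands, and form the 12-letter runs in capitals, beginning 110 and 153 bases before the start site. The single matches begin 27 bases before the start in Orc1 and 138 bases before it in Pola1. Further E2F-type matches were found in the windows of Mcm3, Mcm7, Rfc3, Lig1, Pold1, Cdt1 and Cdc6. The median genotype difference of the 11 members with a match was 0.76 on chow and 0.58 on GW501516, and that of the 22 with a window and no match was 0.35 and 0.34. Prim1 and Rrm2 belong to the second set, as does Tyms, which enters at 0. The measured members Mcm4, Gins1, Gmnn, Prim2, Ccne2, Pole and Rfc2 had no window and are in neither set. Of these all but Pole and Rfc2 were at least 1.5-fold higher on chow. Whether the 2 sets differ was not tested. A match is a description of the letters and does not show that a factor binds there.

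**Figure D2:**
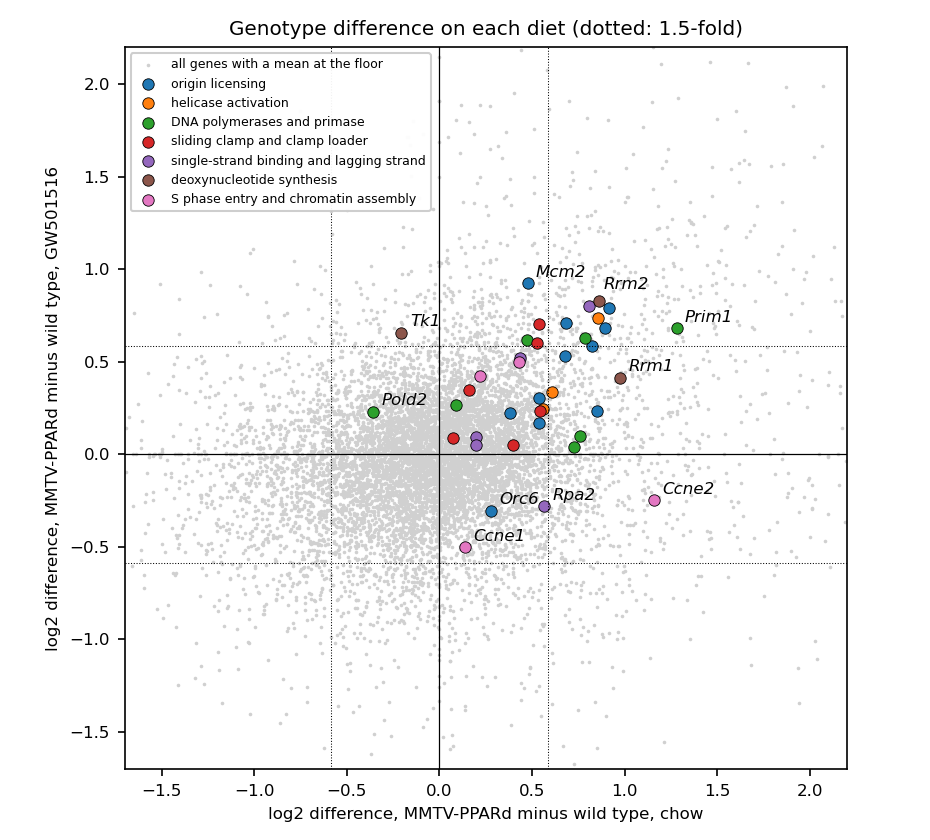
Log2 difference between MMTV-PPARd and wild type on chow (x axis) and on GW501516 (y axis); coloured points are 39 replication genes by role, grey points are the 9882 genes with a mean at the floor, 210 of which lie outside the axes, and dotted lines mark 1.5-fold. Most members sit in the upper right, while Orc6, Rpa2, Ccne1 and Ccne2 lie below 0 on GW501516 and Pold2 and Tk1 lie left of 0 on chow.

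All 11 origin licensing genes were above wild type on chow, with a median difference of 0.68, and 10 of 11 on GW501516, with a median of 0.53. Orc1, the largest subunit of the origin recognition complex, had intensities of 40.1 and 36.0 in wild type on chow and GW501516, and of 75.7 and 62.3 in the transgenic. Both transgenic values stood above both wild-type values, 1.89-fold on chow and 1.73-fold on GW501516. These intensities are low and come from 1 probe set. Only the transgenic chow value lay above the alternative floor of 71.1, the 40th percentile, so under that floor neither fold is held. Cdt1, which brings the helicase to the origin, read 911.4 and 652.6 in wild type and 1696 and 1046 in the transgenic. Its differences were 0.90 and 0.68, with no overlap between genotypes in this probe set, and it was lower on GW501516 than on chow in both. The second Cdt1 probe set read 234.0 and 148.5 in wild type and 428.0 and 214.5 in the transgenic. There the transgenic value on GW501516 lay below the wild-type value on chow.

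Geminin (Gmnn) binds Cdt1 and blocks a second round of licensing. Its intensity was 950.8 in the transgenic on chow and lay between 513.7 and 604.2 on the other 3 arrays, so its difference was 0.85 on chow and 0.23 on GW501516. Cdc6, the loading ATPase, followed the same shape at a low level, with 115.1 on the transgenic chow array and 76.8 to 86.4 on the others. Orc6, the smallest origin recognition subunit, showed no shared direction: it read 287.5 and 313.5 in wild type and 349.2 and 254.0 in the transgenic.

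The Mcm2-7 genes encode the 6 subunits of the helicase ring. Each was above wild type on both diets, by 0.38 to 0.83 on chow and by 0.22 to 0.92 on GW501516. Mcm6 had 550.3 and 594.4 in wild type on chow and GW501516, against 974.9 and 891.1 in the transgenic, differences of 0.83 and 0.58. Mcm5 read 181.2 and 138.2 in wild type and 290.9 and 225.6 in the transgenic, with nearly equal differences of 0.68 and 0.71. Mcm2 went the other way in size, with 266.2 and 206.0 in wild type and 370.4 and 390.7 in the transgenic. This gives 0.48 on chow and 0.92 on GW501516, by the probe sets used the largest difference of any member on GW501516. The second Mcm2 probe set ordered the diets the other way, with 1.08 on chow and 0.51 on GW501516.

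Mcm4 had intensities of 893.1 and 770.1 in wild type and 1431 and 1112 in the transgenic, and Mcm7 1625 and 1553 against 2113 and 1810. For Mcm3 the transgenic value on GW501516, 460.9, lay below the wild-type value on chow, 493.5, although it was above the wild-type value on the same diet, 372.7. Probe sets disagreed for Mcm3 and for Mcm4: the second Mcm4 probe set differed by 0.83 on chow and by -0.18 on GW501516, and 1 of the 5 Mcm3 probe sets was below 0 on each diet, at -0.12 and, for another near the floor, at -0.39. The 6 subunits assemble in equal numbers, but their probe sets bind with different strength, so their levels are not compared with one another here.

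The 3 measured genes of helicase activation were higher in the transgenic on both diets, with medians of 0.61 and 0.34. Gins1, a GINS subunit, read 241.9 and 188.9 in wild type and 437.6 and 315.1 in the transgenic, differences of 0.86 and 0.74. Cdc45, the partner of GINS in the active helicase, read 96.0 and 74.5 in wild type and 141.4 and 88.2 in the transgenic, so the transgenic on GW501516 fell within the wild-type range. Mcm10, which helps the helicase begin to unwind, had 89.3 and 87.9 against 135.9 and 111.0.

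Among the polymerases and primase the largest genotype difference on chow was that of Prim1, the catalytic subunit of primase. Prim1 read 336.4 and 327.0 in wild type on chow and GW501516, and 817.5 and 524.4 in the transgenic. The transgenic values were 2.43-fold and 1.60-fold above those of wild type on the same diet. Its second probe set gave the same picture, with differences of 1.49 and 0.77 beside 1.28 and 0.68. Prim2, the regulatory primase subunit, was high on the transgenic chow array at 345.2 and at 208.6 to 218.5 on the other 3. The second Prim2 probe set also differed on GW501516, by 0.57, where the brighter one gave 0.04.

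Pola1 is the catalytic subunit of DNA polymerase alpha, which extends the RNA primers. Its intensities were 160.2 and 186.4 in wild type and 276.5 and 288.2 in the transgenic, so the genotypes did not overlap and the difference was 0.79 on chow and 0.63 on GW501516. Pola2, the accessory subunit, read between 151.0 and 186.9 on all 4 arrays. Pole, the leading-strand polymerase, had 68.9 and 80.7 in wild type and 95.7 and 123.7 in the transgenic. It was also one of the few members above its chow value on GW501516 in both genotypes, by 0.23 and 0.37.

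The polymerase delta subunits Pold1 and Pold2, which work on the lagging strand, did not move together. Pold1, the catalytic subunit, read 300.0 on the transgenic chow array and 156.3 to 177.0 on the others. Pold2, an accessory subunit, was lowest on that same array, at 396.9, and read 456.7 to 535.7 on the others. The median of the 7 genes of this role was 0.73 on chow and 0.26 on GW501516.

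The 6 genes of the sliding clamp and its loader had median differences of 0.46 on chow and 0.29 on GW501516, and all 6 were above wild type on both diets. PCNA, the ring that holds polymerases on DNA, had intensities of 3524 and 3023 in wild type and 3940 and 3841 in the transgenic, differences of 0.16 and 0.35, both within the probe set scatter. Replication factor C loads that ring. Its subunit Rfc4 read 348.4 and 288.2 in wild type and 506.5 and 469.4 in the transgenic, and Rfc5 read 345.9 and 268.0 against 498.7 and 406.2. For Rfc4 and Rfc5 the genotypes did not overlap, and the differences were 0.53 to 0.54 on chow and 0.60 to 0.70 on GW501516. Rfc1, the large subunit, differed by 0.07 and 0.09 in its brightest probe set, while another of its 3 probe sets gave 1.05 on chow and 0.15 on GW501516. Rfc2 and Rfc3 differed by 0.40 and 0.54 on chow and by 0.05 and 0.23 on GW501516. The second Rfc3 probe set, at a similar intensity, ordered the diets the other way, with 0.07 on chow and 0.37 on GW501516.

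The replication protein A genes encode the complex that coats single-stranded DNA. Rpa1 and Rpa3 were each 0.20 above wild type on chow, and 0.10 and 0.05 on GW501516. Rpa2 read 331.2 and 285.6 in wild type and 490.7 and 235.4 in the transgenic, the highest and the lowest of its 4 values both being transgenic. A second Rpa2 probe set went the opposite way on both diets, at -0.41 and 0.11 where the brighter one gave 0.57 and -0.28, so Rpa2 has no settled direction here.

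On the lagging strand, Lig1 seals the nicks between Okazaki fragments and Fen1 trims their flaps. Lig1 had 326.3 and 286.5 in wild type and 571.3 and 498.6 in the transgenic, 1.75-fold and 1.74-fold higher. Fen1 had 514.4 and 528.1 in wild type and 695.9 and 757.7 in the transgenic, differences of 0.44 and 0.52. Neither gene's genotypes overlapped, and the second Fen1 probe set differed by more, 0.70 on chow and 1.54 on GW501516.

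Ribonucleotide reductase makes deoxynucleotides from ribonucleotides. Rrm2, its small subunit, read 796.4 and 719.1 in wild type and 1449 and 1275 in the transgenic, 1.82-fold and 1.77-fold higher. All 3 Rrm2 probe sets placed the transgenic above wild type, by 0.86 to 1.24 on chow and by 0.83 to 1.14 on GW501516. Rrm1, the large subunit, read 480.7 and 497.2 in wild type and 945.2 and 662.7 in the transgenic. Its difference was 0.98 on chow and 0.41 on GW501516, and its second probe set gave 1.00 and 0.47. Thymidine kinase 1 (Tk1), of the salvage path, did not follow: it read 286.2 and 194.0 in wild type and 248.3 and 306.0 in the transgenic, below wild type on chow and 1.58-fold above it on GW501516.

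The 4 genes of S phase entry and chromatin assembly were not uniform, with medians of 0.32 on chow and 0.09 on GW501516. Cyclin E, which drives Cdk2 at the start of S phase, is encoded by Ccne1 and Ccne2. Ccne2 read 301.3 on the transgenic chow array and 135.1, 174.7 and 147.1 in wild type on chow, wild type on GW501516 and the transgenic on GW501516. It was 2.23-fold above wild type on chow and 0.25 (log2) below it on GW501516. Ccne1 lay between 101.0 and 111.2 on 3 arrays and at 78.4 in the transgenic on GW501516. E2f1 differed by 0.22 and 0.42, but its second probe set by -0.07 and -0.08. Chaf1b, a subunit of the factor that places histones behind the fork, read 130.1 and 111.5 in wild type and 175.0 and 157.5 in the transgenic.

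**Figure D3:**
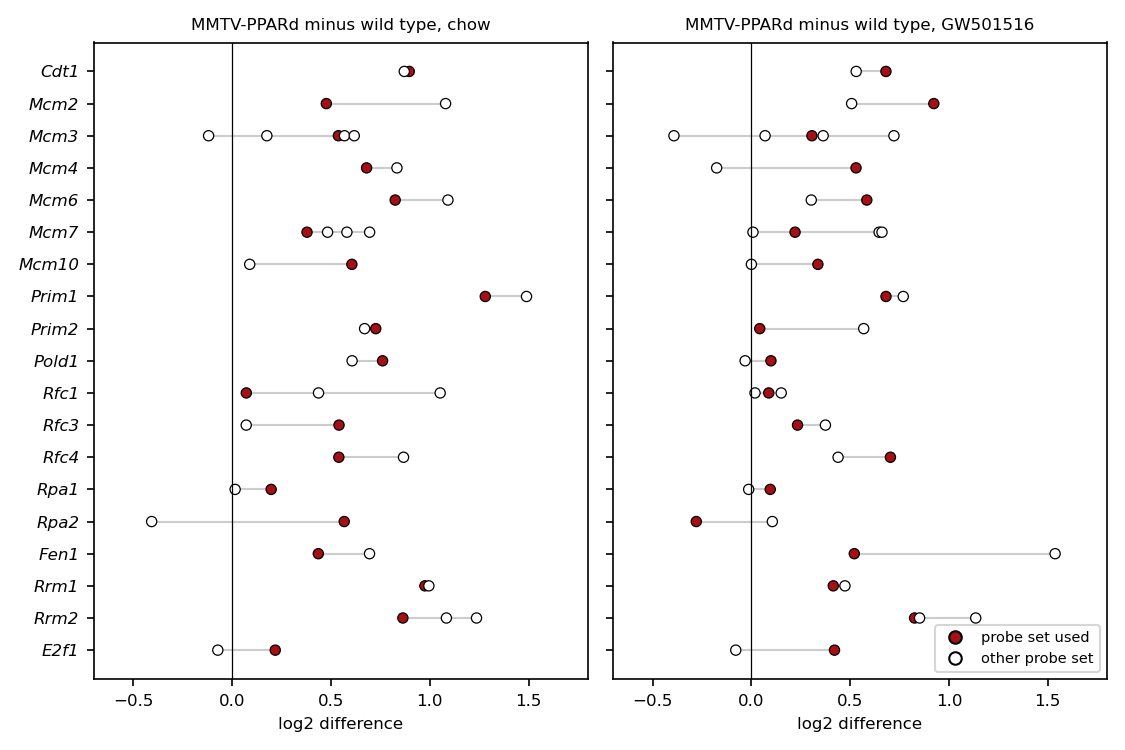
Log2 difference between MMTV-PPARd and wild type for each measured probe set of the 19 replication genes with several, on chow (left) and GW501516 (right); filled points are the probe sets used in the text and open points the gene's other probe sets. For 16 of the 19 genes on chow and 12 on GW501516 all probe sets lay above 0.

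Counted by probe set rather than by gene, the direction was the same. Of the 65 member probe sets that reached the floor on at least 1 array, 60 lay above 0 on chow and 5 below, with 31 at least 1.5-fold higher and none 1.5-fold lower. Among the 16833 named probe sets of the array that did so, the shares were 50.1%, 46.1%, 12.6% and 11.6%. On GW501516, 55 lay above 0 (45.7% of all such probe sets) and 9 below (51%), with 20 at least 1.5-fold higher (7.62%) and none lower (7.73%). Across the 39 members with a mean at the floor, the genotype differences on the 2 diets correlated with r = 0.29 (Pearson) and rho = 0.39 (Spearman), and across all 9882 such genes with 0.33 and 0.23. These points are genes read on the same arrays, not independent replicates.

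GW501516 was accompanied by slightly lower replication gene intensities in both genotypes. In wild type, 30 of 40 members were below their chow value (43.5% of all genes) and 9 above (38.8%), but no member differed by 1.5-fold in either direction, where 6.99% of all genes were that much higher and 7.28% lower. None reached 2-fold either (2.95% higher and 3.18% lower among all genes). The median was -0.16. The largest differences were those of Tk1, at -0.56, Cdt1, at -0.48, Mcm3, at -0.41, and, upward, Ccne2, at 0.37. The second Cdt1 probe set, with 234.0 on chow and 148.5 on GW501516, gave -0.66. Probe sets of Mcm3 and Rrm2 other than those used gave -0.67 and -0.68.

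In the transgenic, 32 of 40 members were lower on GW501516 than on chow (42.9% of all genes) and 7 were higher (38.8%). At least 1.5-fold lower were 9 members (22.5%, against 10.8% of all genes): Cdt1, Gmnn, Mcm3, Cdc45, Prim1, Prim2, Pold1, Rpa2 and Ccne2. At least 2-fold lower were 2 of them, Rpa2 and Ccne2 (5%, against 3.86%), and none was 1.5-fold higher (9.15%) or 2-fold higher (3.47%). A probe set of Rfc1 other than the one used was also 2-fold lower, at -1.08. The median of the 40 members was -0.34. This comparison shares the transgenic chow array, the one that stood apart, with the genotype difference on chow: a high reading there raises the first and lowers the second.

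Below chow in both genotypes were 26 members (65%, against 24.9% of all genes). Over the 9882 genes whose mean reached the floor the shares below chow were higher. They were 52.8% in wild type, 52.4% in the transgenic and 31% in both, beside 76.9%, 82.1% and 66.7% of the 39 members there. Over the 39 members with a mean at the floor the 2 diet differences, which share no array, did not rank the members alike (Pearson r -0.04, Spearman rho -0.03), whereas over all 9882 such genes they correlated with 0.47 and 0.23. By role, the clamp and clamp loader genes were lower on GW501516 in all 6 cases in both genotypes, with medians of -0.25 and -0.30. The medians of the polymerases were -0.04 in both genotypes, where Pold1 and the primase genes were lower in the transgenic and Pold2, Pole and Pola1 were higher, by 0.06 to 0.43.

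**Figure D4:**
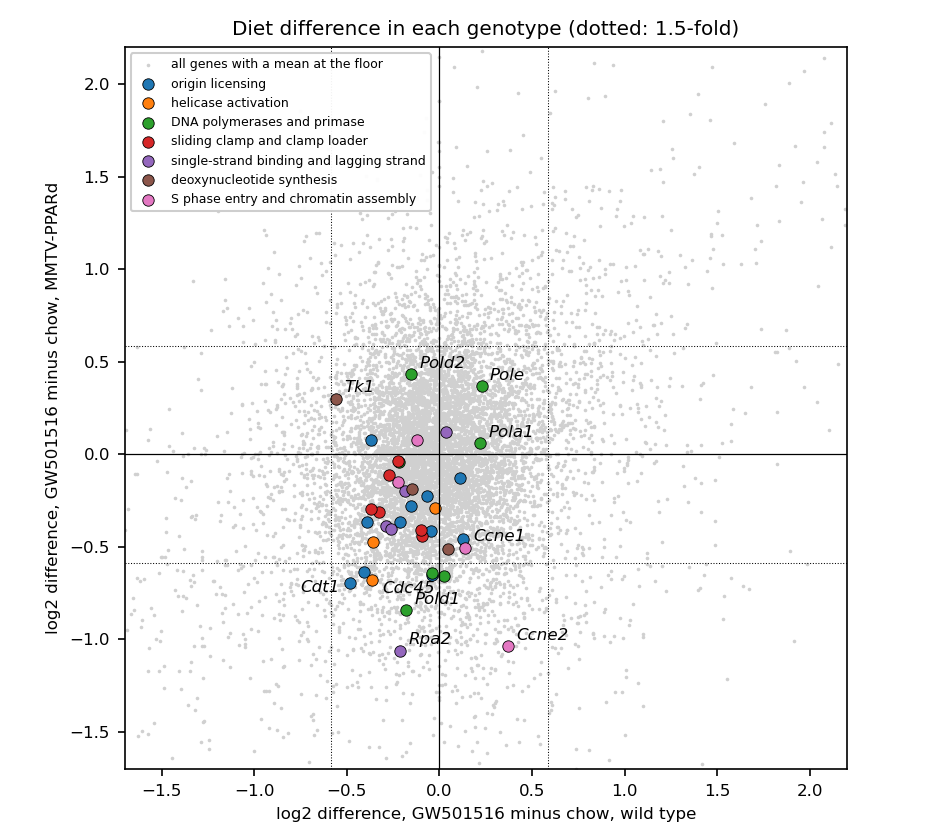
Log2 difference between GW501516 and chow in wild type (x axis) and in MMTV-PPARd (y axis); coloured points are 39 replication genes by role, grey points are the 9882 genes with a mean at the floor, 385 of which lie outside the axes, and dotted lines mark 1.5-fold. The members gather in the lower left within 1.5-fold on the wild-type axis, and Ccne2 lies right of 0 and far below it.

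The difference between the diet effects of the 2 genotypes had a median of -0.15 over the 40 members, with 26 below 0 (42.4% of all genes) and 13 above (41.8%). At least 1.5-fold lower were 7 members (17.5%, against 12.2% of all genes), namely Gmnn, Prim1, Prim2, Pold1, Rpa2, Ccne1 and Ccne2, and 2 were 1.5-fold higher (5%, against 11.8%), Pold2 and Tk1. At 2-fold only Ccne2 remained, at -1.41 (2.5%, against 5.06%), and no member was 2-fold higher (4.3%). The second Mcm4 probe set was also 2-fold lower, at -1.01. These differences carry the scatter of 4 arrays, and the SD between probe sets was 0.61 over the 18 members with several. The genes that held the same genotype difference on both diets most closely were Lig1, at -0.01, Mcm5 and Rfc1, at 0.02, and Rrm2, at -0.04. The other 2 Rfc1 probe sets gave -0.42 and -0.90.

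Set against wild type on chow, the transgenic on GW501516 was higher for 29 of 40 members (39.2% of all genes) and lower for 10 (42.8%), with a median of 0.18. At least 1.5-fold higher were 7 (17.5%, against 9.33%): Orc1, Mcm6, Pola1, Prim1, Pole, Lig1 and Rrm2. None was 1.5-fold lower (9.71%), and none passed 2-fold (4.57% higher and 4.17% lower among all genes). By other probe sets Fen1 was 2-fold higher, at 1.21, and Mcm3 1.5-fold lower, at -0.60. The highest values by the probe sets used were those of Pola1, at 0.85, and Pole, at 0.84. These 2 polymerase genes were not below chow on GW501516 in either genotype.

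Other genes of the S phase machinery, kept on a separate list, lay at similar values. Of 40 such genes 32 were measured (Mcm9 below the floor on all arrays), with a median genotype difference of 0.46 on chow and 0.23 on GW501516. On chow 13 were at least 1.5-fold higher and none lower (10.5% and 10.3% of all genes), and on GW501516 7 were higher and 1 lower (6.59% and 5.9%). Exo1, a nuclease of mismatch repair and end resection, read 47.7 and 43.0 in wild type and 187.0 and 83.0 in the transgenic, 3.92-fold and 1.93-fold higher. Hells, a chromatin remodeller of dividing cells, read 227.3 and 216.2 against 697.7 and 350.3. As with Prim1, Rrm1 and Gmnn, the transgenic values of both genes were much higher on chow than on GW501516.

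Genes of mitosis were also mostly higher in the transgenic. Of 36 listed genes 34 were measured, with medians of 0.92 on chow and 0.89 on GW501516. On the 2 diets 30 and 26 were at least 1.5-fold higher (10.5% and 6.59% of all genes), and 13 and 14 at least 2-fold (4.53% and 2.37%). Below wild type were 1 on chow and 2 on GW501516 (39.8% and 42.2%), and on GW501516 1 was at least 1.5-fold lower (5.9%). Mki67, the Ki-67 proliferation marker, read 447.5 and 401.4 in wild type and 1017 and 935.8 in the transgenic, and Top2a, the topoisomerase that untangles sister DNA, 502.4 and 441.0 against 918.6 and 697.7. Whether the members and the mitosis genes differ from each other was not tested.

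Upstream of the members, 12 of 12 listed G1 cyclin and kinase genes had a probe set, with medians of 0.27 and 0.22. Cdk6, below the floor on all arrays, enters at 0. On chow 7 were above wild type and 4 below (41.9% and 39.8% of all genes), and on GW501516 8 and 3 (39.5% and 42.2%). Cyclin D1 (Ccnd1), which with Cdk4 or Cdk6 releases E2F, read 1320 and 1423 in wild type and 3164 and 2914 in the transgenic, 2.40-fold and 2.05-fold higher. Myc had 481.9 and 431.9 in wild type and 1540 and 521.9 in the transgenic, a single high reading on the chow array. Cyclin D2 (Ccnd2) was lowest on the same array, at 1718 against 2666 to 3151.

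**Figure D5:**
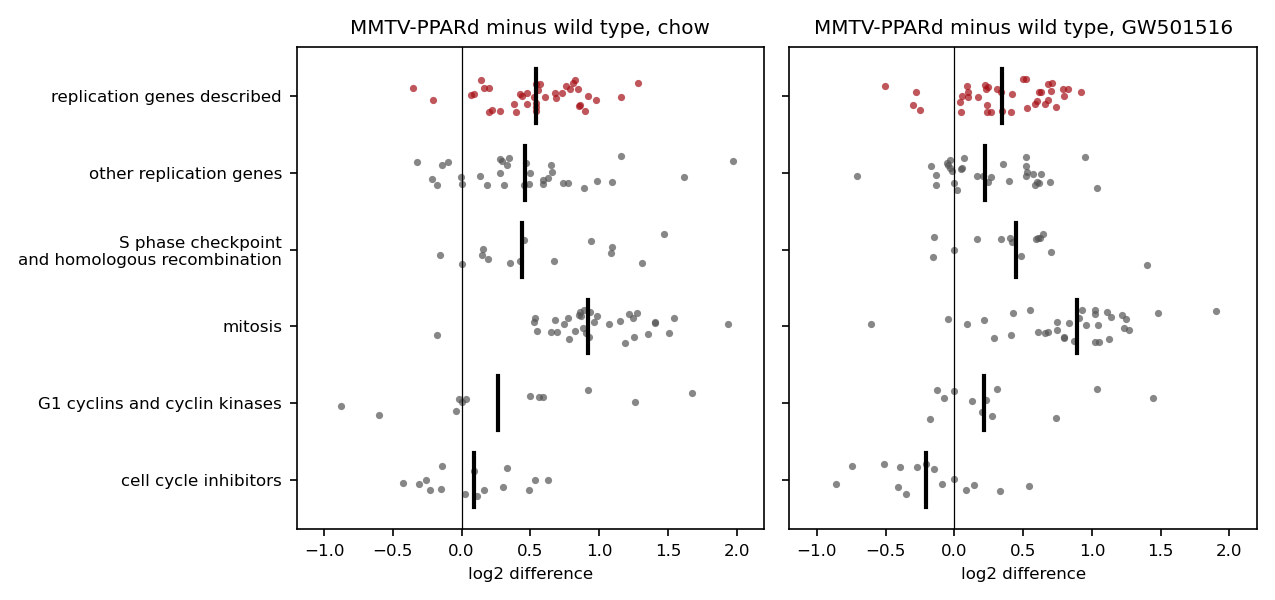
Log2 difference between MMTV-PPARd and wild type on chow (left) and GW501516 (right) for the measured replication genes described (red) and for 5 further gene lists (grey); each point is 1 gene and the black bar is the median of the list. The replication genes have medians of 0.54 and 0.34, mitosis genes of 0.92 and 0.89, and cell cycle inhibitors of 0.09 and -0.21.

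Cell type markers also differed between the arrays, and the members are set beside them. In whole tissue more cells of a type and more RNA per cell cannot be told apart. Luminal epithelial markers (18 of 20 measured, with Esr1 below the floor on all arrays) summed to 24634 and 27986 in wild type on chow and GW501516 and to 36748 and 41389 in the transgenic, with median differences of 0.75 and 0.51. On chow 13 of them were above wild type and 4 below (41.9% and 39.8% of all genes). On GW501516 12 were above and 5 below (39.5% and 42.2%). Basal epithelial markers (12 of 12) summed to 11154 and 12204 against 16718 and 15218, with median differences of 0.54 and -0.05. On GW501516 7 of the 12 basal markers were lower in the transgenic, while Krt14 read 2818 against 334.9. Milk protein genes (14 of 14) summed to 34328 and 56850 in wild type and to 64944 and 140168 in the transgenic. Their medians were 0.72 and 1.64. On chow 9 were above wild type and 5 below, and on GW501516 all 14 were above. Glycam1 of this list read 9535 and 2.2 in wild type on chow and GW501516, and 8128 and 4207 in the transgenic. The medians of the members and of the luminal markers were thus above 0 on both diets. The part of epithelial and milk protein RNA in the replication gene values was not tested.

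Lymphocyte markers went the other way on chow, with median genotype differences of -1.47 for T cells and -0.76 for B cells. On GW501516 both medians were 0. Of the T cell markers 3 were above wild type there and 3 below, and of the B cell markers 2 and 3. Among all genes 39.5% were above and 42.2% below. T cell markers (10 of 12) summed to 7484 in wild type on chow and 2781 in the transgenic on chow, and to 1227 and 1140 on GW501516. B cell markers (10 of 11) summed to 4088 and 2224 on chow and 1251 and 815.1 on GW501516. On the GW501516 arrays Cd4, Cd8a, Cd8b1 and Cd5 of the T cell list and Cd79a, Cr2, Pax5, Blk and Fcer2a of the B cell list were below the floor in both genotypes. Others of these lists stayed above it, such as Cd79b, at 112.8 in wild type and 48.8 in the transgenic. The 4 measured of 7 germinal centre B cell markers summed to 567.4 to 812.2 on the 4 arrays, with Mybl1 below the floor on every array. Most of that sum was Bcl6, at 396.3 to 579.8, which was above wild type on both diets. Fas and Gcsam were below wild type on both. Fas read 261.8 and 175.1 in wild type on chow and GW501516, and 193.6 and 68.3 in the transgenic. The part of lymphocytes in the replication gene differences was not tested.

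Skeletal muscle markers (19 of 20) summed to 19435 and 44733 in wild type and the transgenic on chow, and to 157388 and 151448 on GW501516. The median genotype difference of this list was 1.57 on chow and -0.19 on GW501516. Between diets the muscle signal was higher on the arrays where the members were slightly lower, and its part in the differences was not tested. Macrophage markers (10 of 10) summed to 20971 to 29251, white adipocyte markers (9 of 11) to 47993 to 69985, fibroblast and matrix markers (10 of 11) to 62464 to 90838 and endothelial markers (9 of 9) to 3318 to 4088. All 4 of these sums were lowest on the transgenic chow array, where most members were highest.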

How the data were processed

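The deposited values are probe set intensities of 4 Affymetrix arrays. Per the labels' protocols, each cRNA was made from equal amounts of RNA pooled from 5 mice and labelled with biotin. What scanner software, summarisation and detection calls were used, and on which genome build, is not given in the sources used here. Without the lowest and highest 2% of values, the mean was 500.2 on every array, so the authors' intensity values had been scaled to 1 trimmed mean. Median intensities were 137.2 to 144.0. Symbols came from the platform's table, updated by gene ID through a RefSeq table: 20393 probe sets had 1 symbol, 691 several and 1606 were not listed.

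Per gene the probe set with the highest mean was kept, values under the 25th percentile were set to it, and log2 differences were taken with Python 3.11.15, numpy 2.4.6 and pandas 2.3.3. No filter on low values was used. With 1 array per group no comparison has a replicate spread and no test was made; the number of arrays limits every value. The steps were tested on simulated data. The members and lists were chosen with earlier results of these data known. Named genes were all members, up to 4 genes per list with the largest genotype difference, and fixed checks. Alternatives were another scaling, quantile normalization, other floors, filters, the mean over probe sets, leaving out probe sets that can share transcripts, and a 1.5-fold limit.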

Additional observations from a re-analysis of the deposited data

Results flagged for a closer look

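Ccne2, a cyclin E gene, differed between the diets in opposite directions in the 2 genotypes. It was 0.37 (log2) higher on GW501516 in wild type, 174.7 against 135.1, and fell by 1.03 in the transgenic, 147.1 against 301.3, a difference of -1.41 between the 2 effects. It has 1 probe set on the array, the result rests on 1 array per group, and the difference was not tested. The transgenic chow array that carries the high reading is the one whose control probe sets stood apart.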

How the results depend on the processing

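The medians of the 40 members kept their sign under every alternative: 0.47 to 0.54 for the genotype difference on chow, 0.30 to 0.38 on GW501516, -0.21 to -0.15 for the diet difference in wild type, -0.37 to -0.27 in the transgenic, 0.13 to 0.20 for both factors together and -0.15 to -0.06 for the difference of the diet effects. Of the counts and medians, 317 moved by less than 1.5 times or the probe set scatter. Of the values of single members, 18 moved by more than that scatter and 25 had another sign, 3 of them genotype differences. These 3 changed without probe sets that can share transcripts: Mcm3 on chow went from 0.54 to -0.12, Pold1 on GW501516 from 0.10 to -0.03 and Rpa1 on GW501516 from 0.10 to -0.01. The counts that moved were small, and the cause of their change was not tested. At least 2-fold lower on GW501516 in the transgenic were 0 members with each array shifted to 1 median, 1 under quantile normalization and 1 with the mean over probe sets, in place of 2. The 7 members at least 1.5-fold lower in the difference of the diet effects became 3 and 4 under those 2 scalings. Without a floor beyond an intensity of 1, 1 member was 2-fold and 1.5-fold higher on GW501516 in wild type, 1 was 1.5-fold higher in the transgenic, 1 was 2-fold higher for both factors together and 2 were 2-fold lower in the difference. The mean over probe sets put 1 member at 2-fold higher in the transgenic on GW501516. Without probe sets that can share transcripts, which left 36 members, 2 were 1.5-fold lower on GW501516 in wild type and 1 for both factors together. At the 1.5-fold limit the counts were 16 higher on chow and 13 on GW501516, 9 lower on GW501516 in the transgenic, 7 higher for both factors together, and 2 higher and 7 lower in the difference. No replicate could be left out. No paired analysis was possible because there was 1 array per group.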

Other observations

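Genes that check or repair DNA during S phase were also mostly higher in the transgenic pools, with medians of 0.44 on chow and 0.45 on GW501516. Of the 18 genes 14 were measured, with Bard1 below the floor on all arrays. Brca1, which acts in homologous recombination, read 75.3 and 65.3 in wild type on chow and GW501516 and 208.9 and 172.0 in the transgenic, 2.77-fold and 2.63-fold higher. Chek1, the kinase of the replication checkpoint, read 101.4 and 125.8 against 252.3 and 175.5. For both genes the 2 transgenic arrays lay above the 2 wild-type arrays.

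Genes that hold back the cell cycle, 15 of 16 measured, had median genotype differences of 0.09 on chow and -0.21 on GW501516. On chow 9 were above wild type and 6 below (41.9% and 39.8% of all genes). On GW501516 4 were above and 10 below (39.5% and 42.2%), 2 of them at least 1.5-fold lower (5.9%). Cdkn1a, the p21 inhibitor of cyclin-dependent kinases, was lower in the transgenic, with 443.9 and 547.9 in wild type and 329.8 and 301.5 in the transgenic, while Cdkn1b, the p27 inhibitor, read 566.5 to 684.8 on all 4 arrays. Of the E2F and DP factor genes 6 of 9 were measured, with medians of 0.27 and -0.13. E2f8, a repressor of the family, read 60.8 and 82.0 in wild type and 149.7 and 99.4 in the transgenic. E2f3 was near the floor, at 23.3 to 53.3.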
